A study of Mus musculus with 12 samples.

Results

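Collagen chains are the subunits of the collagens, the main structural proteins of the extracellular matrix. The genes described here are all protein-coding rows of the count table whose symbol is that of a collagen chain (Col, the number of the type, a, the number of the chain), which gave 44 genes of the 39756 rows of the table, or of 21774 protein-coding rows. The fibrillar collagens make up 11 of them and the basement membrane collagens of type IV another 6. The other 27 comprise 9 FACIT genes (fibril-associated collagens with interrupted triple helices), 6 genes of type VI, 4 transmembrane collagens, 3 genes of the network-forming types VIII and X, 2 multiplexins (types XV and XVIII), and Col7a1, Col26a1 and Col28a1, which were kept together as an anchoring fibril gene and unclassed genes.

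The RNA came from brain hemispheres of 12 mice, 4 in each of 3 groups, labelled with the genotype C57BL/6J and 1 batch. By the study's methods the mice were male and 9 to 10 weeks old. Those methods name the ischemic hemisphere for every group, although the Sham mice had no occlusion. Sham mice had the surgery without the occlusion and received saline. Vehicle mice received saline and underwent transient middle cerebral artery occlusion (tMCAO), a model of ischemic stroke in which the artery is blocked for 45 minutes and then reperfused. LJP mice underwent the same occlusion and were given LJP, a polysaccharide of the brown seaweed Laminaria japonica, into the stomach every day for 14 days before surgery and also after it, so the treatment began ahead of the injury. All 3 groups shared the strain. The labels give no dose, and the study compared several doses and took the middle one forward to its later experiments. The sources used here do not state the dose of the sequenced mice or the time from surgery to sampling in so many words.

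Collagen chains wind into helical trimers in the endoplasmic reticulum, where proline and lysine residues are hydroxylated, and are secreted, trimmed and cross-linked outside the cell. Fibrillar collagens form the banded fibrils of connective tissue, and type IV collagen forms the sheet-like scaffold of basement membranes. The healthy brain parenchyma holds little fibrillar collagen, which sits mainly in the meninges and around larger vessels, whereas type IV collagen surrounds every capillary. Fibrillar collagen is known to be laid down by fibroblast-like cells in the scar that forms after a stroke.

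The libraries held 17960353 to 22216315 counts. Levels are CPM, counts scaled to 1000000 per library after the library sizes had been adjusted by TMM (trimmed mean of M values), and differences are log2 fold changes from edgeR's quasi-likelihood test fitted to all 12 mice, with p-values adjusted by the Benjamini-Hochberg method over the 17558 genes tested. A gene is said to have risen or fallen where that adjusted p was under 0.05. The tissue carried its markers: the neuronal genes Snap25 and Syt1 lay at 1682 to 1987 and 1209 to 1352 CPM in the Sham group, and the astrocyte gene Gfap rose in the Vehicle group. Vehicle mouse 2 stood apart from the other Vehicle mice in the collagen genes, so values without it are given below beside those with it. Over all genes, pairs of Vehicle mice that held mouse 1 or 2 differed by a chi-square per gene of 41.3 to 111, beside 4.19 for Vehicle mice 3 and 4 and 15.2 or less for any pair within the Sham or LJP group. Mice of 1 group also differed in the choroid plexus gene Ttr, which ranged from 13.4 to 806 CPM in the Sham group, 2.99 to 465 in the Vehicle group and 5.07 to 338 in the LJP group. As whole tissue was sequenced, more cells of a type and more RNA per cell cannot be told apart.

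For 35 of the 44 genes the RefSeq promoter table of build GRCm38.p6 held a window of 250 bases before the start site and 50 bases from it on. The windows of the 4 genes below are shown because Col3a1 had the largest fold change of the collagens after occlusion in the fit to all mice (without Vehicle mouse 2 it was second to Col5a3), Col1a2 encodes the partner chain of type I collagen, and Col4a1 and Col4a2, the pair with the highest levels in the Vehicle group, lie head to head on chromosome 8 and share the stretch between them. Capitals mark the TATA box, searched as TATAAA, the CCAAT box, and the GC box, searched as GGGCGG. Each was searched on both strands, so a box on the other strand appears as its complement read backwards, and boxes that overlap or abut run together. The windows are Col3a1 at chr1:45311288-45311587 on the plus strand, Col1a2 at chr6:4505368-4505667 on the plus strand, Col4a1 at chr8:11312777-11313076 on the minus strand and Col4a2 at chr8:11312555-11312854 on the plus strand.
Col3a1: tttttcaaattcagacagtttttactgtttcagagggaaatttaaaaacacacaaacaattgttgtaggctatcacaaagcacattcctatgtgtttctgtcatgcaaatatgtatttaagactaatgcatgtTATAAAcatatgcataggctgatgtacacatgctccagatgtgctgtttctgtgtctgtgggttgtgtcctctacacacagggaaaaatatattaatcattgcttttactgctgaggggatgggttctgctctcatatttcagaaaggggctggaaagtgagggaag
Col1a2: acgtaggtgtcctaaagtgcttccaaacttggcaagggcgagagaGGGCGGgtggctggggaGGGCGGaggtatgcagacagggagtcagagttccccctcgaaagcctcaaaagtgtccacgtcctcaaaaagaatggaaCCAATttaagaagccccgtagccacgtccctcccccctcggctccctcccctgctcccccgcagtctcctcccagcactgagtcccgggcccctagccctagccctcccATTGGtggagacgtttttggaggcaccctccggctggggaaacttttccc
Col4a1: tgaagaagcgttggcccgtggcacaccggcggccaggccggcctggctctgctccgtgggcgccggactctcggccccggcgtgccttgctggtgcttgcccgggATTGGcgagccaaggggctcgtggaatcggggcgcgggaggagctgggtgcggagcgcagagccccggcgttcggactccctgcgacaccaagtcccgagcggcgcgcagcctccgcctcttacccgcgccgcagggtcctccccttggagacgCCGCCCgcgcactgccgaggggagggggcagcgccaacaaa
Col4a2: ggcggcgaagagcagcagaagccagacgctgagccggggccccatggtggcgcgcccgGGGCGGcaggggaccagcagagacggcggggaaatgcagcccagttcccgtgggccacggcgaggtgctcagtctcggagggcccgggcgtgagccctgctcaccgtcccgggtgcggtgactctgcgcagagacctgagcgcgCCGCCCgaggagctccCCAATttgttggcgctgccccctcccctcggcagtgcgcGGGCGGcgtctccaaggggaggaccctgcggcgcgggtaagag
The Col4a1 and Col4a2 windows overlapped by 78 bases, read on opposite strands, and were 74.0% and 73.7% G or C, against 61.0% for Col1a2 and 37.7% for Col3a1. The Col3a1 window held TATAAA at -117 from the start site and neither other box. The other 3 windows held CCAAT and GGGCGG boxes and no TATAAA. Over all collagen genes with a window, 5 of 35 held TATAAA (14.3%, beside 13.6% of the 32851 promoters in the table), 13 held CCAAT (37.1%, beside 37.4%) and 22 held GGGCGG (62.9%, beside 35.7%). An AP-1 site, searched as TGANTCA on both strands, was in the window of 1 gene, Col6a1 (2.86%, beside 7.81% of all promoters). A collagen gene was counted if any of its windows held the box (38 windows for the 35 genes), while the shares of all promoters count single windows. These are matches of letters in a short window and say nothing of which factors bind there.

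In the Sham group the collagen genes covered a wide range of levels. Compared per kilobase of the gene length that the table gives, the highest were Col6a1, a chain of the beaded type VI filaments, at 14.4 ± 1.48 CPM per kilobase (mean ± SD, n = 4) and Col4a2 at 9.82 ± 0.611. Next came Col9a3, Col4a1 and Col1a2 at 6.35 ± 1.72, 6.00 ± 0.332 and 5.31 ± 0.300. Of these neighbours, Col9a3 did not differ from Col4a1 or Col1a2 beyond its spread between mice. Col3a1, the chain of type III collagen, ranked 23 of 44 at 0.839 ± 0.108 CPM per kilobase.

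At the bottom of that order were Col4a3, Col28a1 and Col6a6. Type IV collagen was therefore mostly Col4a1 and Col4a2, the chains of the general vascular basement membrane, while Col4a3 and Col4a4, known from the kidney glomerulus, ranged from 0.231 to 1.10 and from 1.09 to 2.08 CPM in the Sham group. The filter on low counts kept 40 of the 44 genes, and Col10a1, Col28a1, Col6a6 and Col9a1 were not tested. Their levels over all 12 mice lay between 0 and 0.767 CPM.

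In the Vehicle group the order per kilobase changed. Col4a1 and Col4a2 stood first by group mean at 54.0 ± 54.4 and 53.7 ± 46.4 CPM per kilobase (mean ± SD, n = 4), followed by Col6a1 at 29.8 ± 14.5. In Vehicle mice 1 to 4, Col4a1 was at 48.6, 132, 12.9 and 22.2 and Col4a2 at 57.9, 118, 15.4 and 24.0. By group mean, Col3a1 had moved from rank 23 to rank 4 at 28.2 ± 40.0, and Col1a2 and Col1a1 followed at 25.0 ± 30.3 and 21.3 ± 26.2. Vehicle mouse 2 carried these means. In Vehicle mice 1 to 4, Col3a1 was at 8.51, 87.9, 3.66 and 12.7 CPM per kilobase. Col1a2 was at 6.51, 70.3, 9.20 and 14.2, and Col1a1 at 5.48, 60.4, 7.06 and 12.2. Within each of the 4 Vehicle mice Col4a1 and Col4a2 were above Col3a1, Col1a2 and Col1a1, and Col1a2 was above Col1a1. The order of the other pairs among these 6 genes differed between mice, and Col4a1 was above Col4a2 in mouse 2 only. In the LJP group Col6a1, Col4a2 and Col4a1 led at 23.2, 12.4 and 9.91 CPM per kilobase, and Col3a1 was at rank 18.

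The comparison of the Vehicle with the Sham group addresses the response to occlusion and reperfusion. Of 40 collagen genes tested, 18 rose and 2 fell, beside 22.7% of all genes tested that rose and 17.3% that fell. The median log2 fold change over the 40 genes was 0.69, with 26 of them above 0, while the median of all genes tested was 3.5e-05 and 50% of them lay above 0. The rise took in 7 of 11 fibrillar genes (median 2.24), 4 of 6 type IV genes (median 1.12) and 7 of the 23 other genes tested (median 0.16). Every Vehicle mouse lay above every Sham mouse in 18 of the 40 collagens, the same 18 that rose, beside 20.7% of all genes tested. Both counts come from the same mice, so the separation is not separate support for the rise. All Vehicle mice were below all Sham mice for 4 collagens, Col11a2, Col24a1, Col25a1 and Col26a1, beside 18.8% of all genes tested. DESeq2, which tested all 44 genes, called 19 higher and 5 lower, beside 18.8% and 14.5%.

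**Figure D1:**
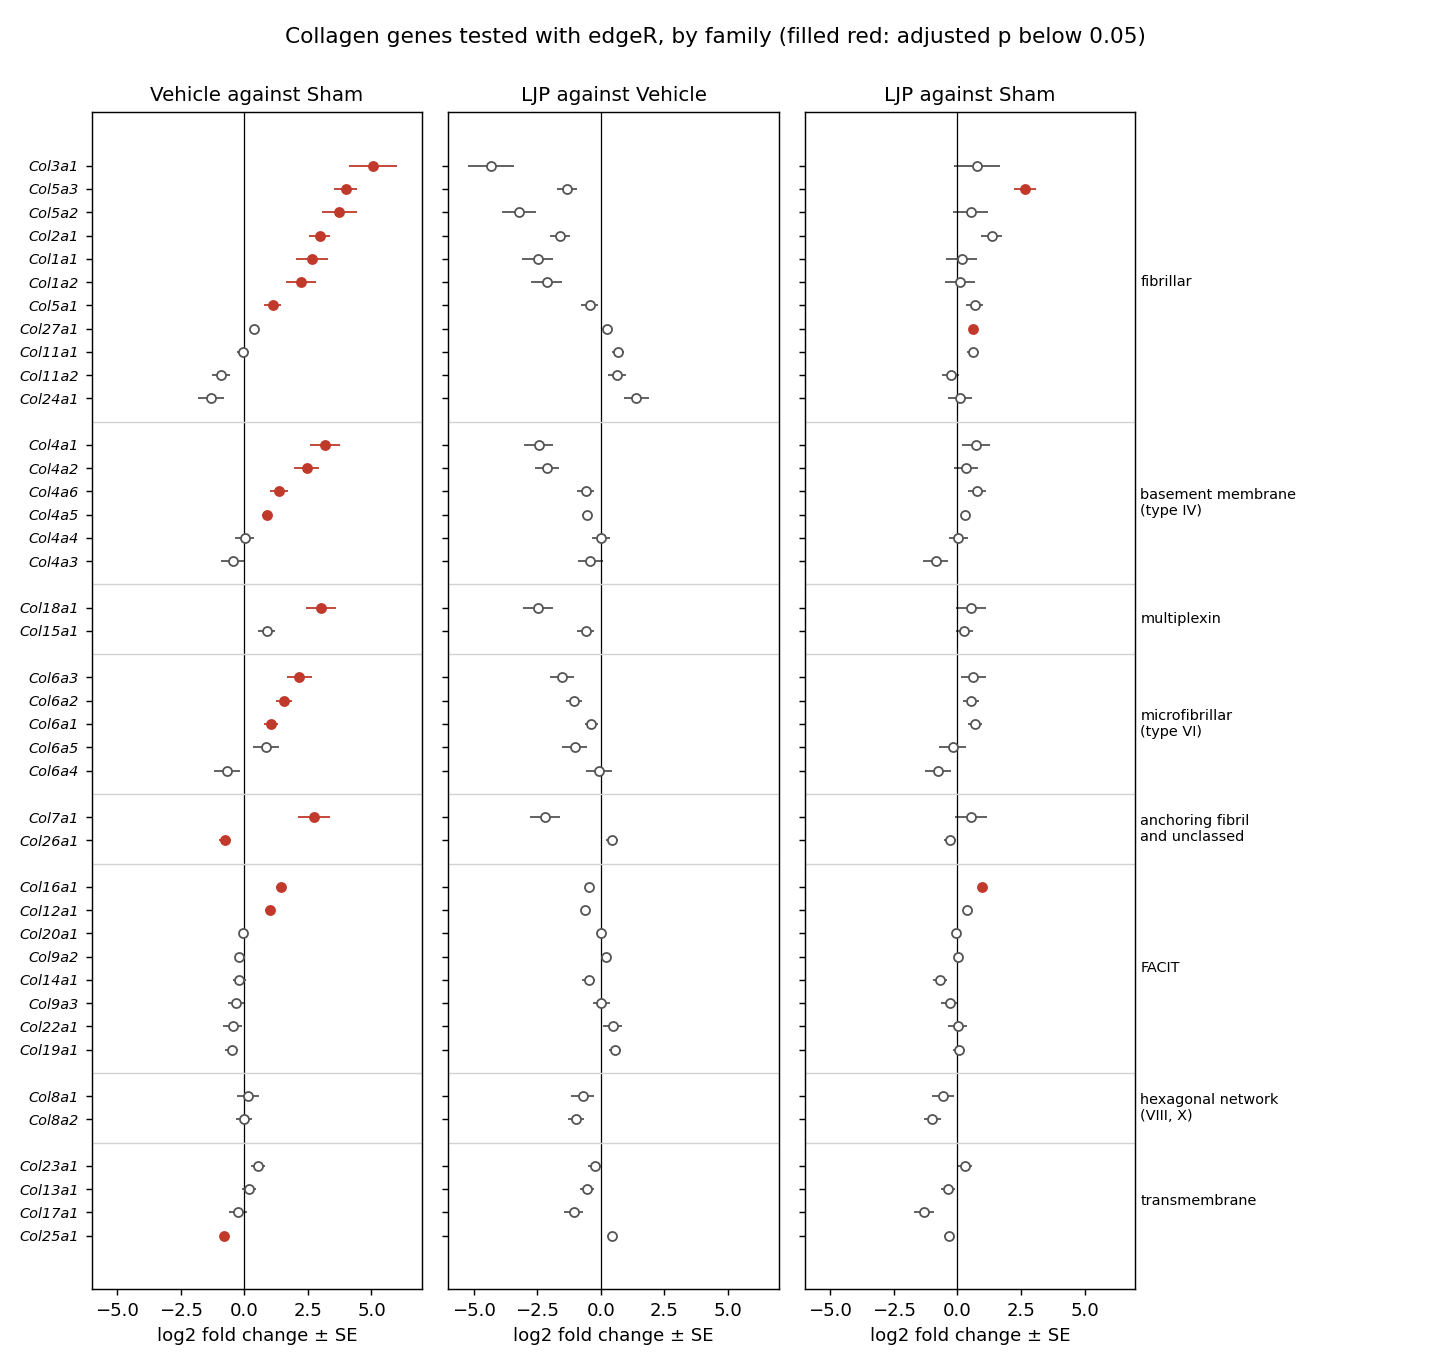
Log2 fold change with its standard error (horizontal axis) of the 40 collagen genes tested, grouped by family, in the 3 comparisons. Filled red points passed an edgeR adjusted p of 0.05: 18 genes above 0 and 2 below in Vehicle against Sham, none in LJP against Vehicle and 3 above 0 in LJP against Sham.

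Among the fibrillar collagens the chains of types I, II, III and V rose. Col3a1 encodes the single chain of type III collagen, found with type I in pliable tissues and vessel walls. Its level was 4.56, 4.58, 4.06 and 5.49 CPM in Sham mice 1 to 4, 47.4, 489, 20.3 and 70.9 in Vehicle mice 1 to 4 and 8.63, 3.07, 16.3 and 3.79 in LJP mice 1 to 4. Vehicle mouse 2 was far above the rest, all 4 Vehicle mice lay above all Sham and LJP mice, and the Sham and LJP mice overlapped. With all mice included it rose with the largest fold change of the collagens (log2 fold change 5.07, SE 0.95, edgeR adjusted p = 0.00189), and the value without Vehicle mouse 2 was 3.30 (edgeR adjusted p = 0.000475), below that of Col5a3 at 3.51.

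The chains of type I collagen, the main collagen of skin, bone and scar, moved less. Col1a1 was at 18.9, 19.9, 20.1 and 21.0 CPM in Sham animals, 32.5, 358, 41.9 and 72.1 in Vehicle animals and 20.5, 20.9, 31.5 and 17.2 in LJP animals. Col1a2 was at 26.9, 29.7, 26.1 and 28.1 CPM in Sham, 34.0, 367, 48.1 and 74.1 in Vehicle and 28.9, 27.7, 36.4 and 26.4 in LJP animals. For both genes Vehicle mouse 2 held several times the level of any other mouse, every Vehicle mouse was above every Sham mouse, and the Sham and LJP mice overlapped. Both rose after occlusion, Col1a1 by a log2 fold change of 2.66 (SE 0.63, edgeR adjusted p = 0.00624) and Col1a2 by 2.24 (SE 0.60, edgeR adjusted p = 0.0109). Leaving out Vehicle mouse 2 gave 1.28 and 0.90 (edgeR adjusted p = 0.00165 and 0.00445).

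Type V collagen, a minor partner of type I that sets fibril width, had 3 genes that rose. Col5a3 was at 2.48, 2.34, 2.63 and 2.33 CPM in Sham animals, 46.7, 71.3, 19.1 and 17.9 in Vehicle animals and 10.7, 15.9, 21.8 and 13.5 in LJP animals. Both occluded groups lay wholly above the Sham mice, and LJP mouse 3 was above Vehicle mice 3 and 4. It had the smallest p of the collagens (log2 fold change 3.99, SE 0.44, edgeR adjusted p = 0.000124), and the value was 3.51 without Vehicle mouse 2.

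Col5a2 was at 3.17, 3.16, 3.45 and 3.68 CPM in Sham animals, 21.1, 129.7, 9.58 and 19.0 in Vehicle animals and 4.77, 4.19, 6.42 and 3.96 in LJP animals. None of the 3 groups overlapped, with the LJP mice just above the Sham mice. It rose (log2 fold change 3.74, SE 0.70, edgeR adjusted p = 0.00183) and stayed so without Vehicle mouse 2 (2.29, edgeR adjusted p = 5.78e-05). Col5a2 lies next to Col3a1 on chromosome 1, 24624 bases away on the opposite strand.

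Col5a1 also rose but was seventh by p, outside the rule for genes given with full statistics. It ranged over 14 to 17.9 CPM in the Sham group, 22.1 to 69.0 in the Vehicle group and 16.9 to 35.6 in the LJP group, and its call was lost without Sham mouse 2 (edgeR adjusted p = 0.0551). Col2a1, the chain of cartilage collagen, was low throughout. It stood at 0.807, 0.872, 1.04 and 1.14 CPM in Sham animals, 12.3, 9.32, 2.91 and 5.71 in Vehicle animals and 2.13, 2.10, 3.86 and 1.84 in LJP animals. It was the 1 gene of the 18 whose highest Vehicle mouse was not mouse 2, all occluded mice lay above all Sham mice, and it rose (log2 fold change 2.96, SE 0.42, edgeR adjusted p = 0.000414).

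The other 4 fibrillar genes, Col11a1, Col11a2, Col24a1 and Col27a1, did not pass. Col11a2 and Col24a1 had log2 fold changes of -0.90 and -1.31 (edgeR adjusted p = 0.0602 and 0.0554). For Col11a2, Vehicle mice 1 and 2 were at 7.99 and 9.19 CPM and the other Vehicle mice at 29.4 and 29.7, all below the Sham range of 33.3 to 37.7. For Col24a1, Vehicle mouse 1 was at 0.0908 CPM and the other Vehicle mice between 1.42 and 2.15, all below the Sham range of 3.12 to 3.98.

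Type IV collagen of the vascular basement membrane rose in its main chains. Col4a1 was at 41.8, 47.6, 46.2 and 45 CPM in Sham animals, 365, 996, 97.2 and 167 in Vehicle animals and 70.3, 56.5, 113 and 58.5 in LJP animals. Col4a2 was at 67.5, 58.0, 63.8 and 64.1 CPM in Sham, 374, 759, 99.4 and 155 in Vehicle and 71.1, 72.5, 108 and 68.3 in LJP animals. Both genes kept the same order of Vehicle mice (2, 1, 4, 3), every Vehicle and LJP mouse was above every Sham mouse, and LJP mouse 3 lay above Vehicle mouse 3. Both rose, Col4a1 by a log2 fold change of 3.17 (SE 0.58, edgeR adjusted p = 0.00167) and Col4a2 by 2.45 (SE 0.49, edgeR adjusted p = 0.00253). The values without Vehicle mouse 2 were 2.21 and 1.72 (edgeR adjusted p = 0.000590 and 0.00181).

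Their annotated spans on chromosome 8 overlap by 85 bases, and their start sites in the promoter table are 22 bases apart, both counted. Gm15418, a non-coding gene on the strand opposite to Col4a1, shares 12337 bases of its span. The library kit named in the labels does not mark strand, so reads of Col4a1 and Gm15418 cannot be told apart where they overlap. Gm15418 was assigned 23.5, 67.2, 5.81 and 12.6 CPM in Vehicle animals, in the same order as Col4a1, and its counts were 0.0605 to 0.108 of those of Col4a1 in Sham animals, 0.0598 to 0.0756 in Vehicle animals and 0.0708 to 0.0866 in LJP animals.

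**Figure D2:**
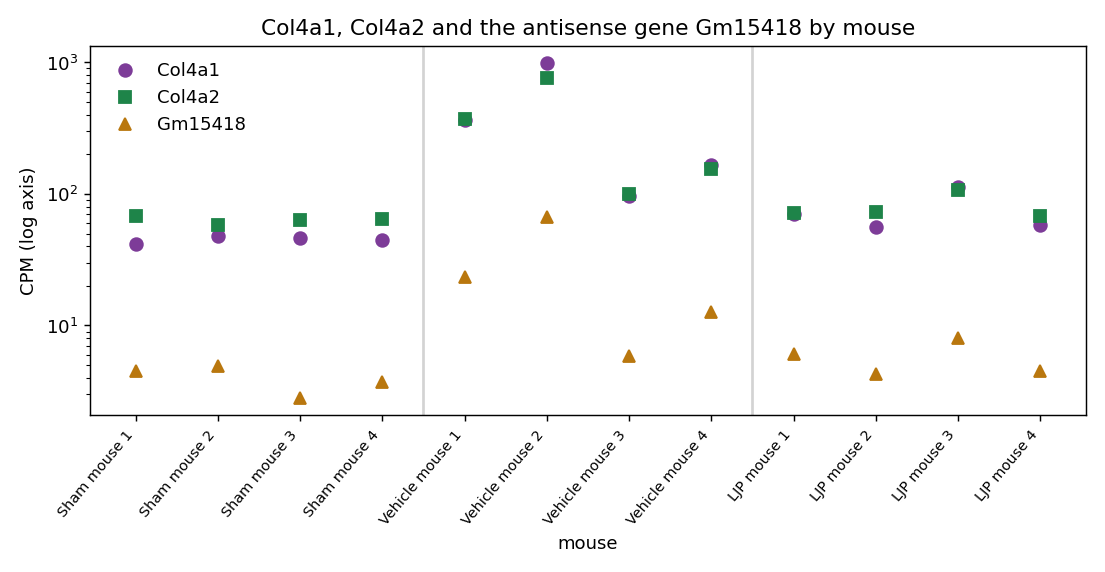
CPM on a log axis of Col4a1, Col4a2 and the antisense gene Gm15418 in each of the 12 mice. The 3 genes follow the same order of Vehicle mice, with mouse 2 highest and mouse 3 lowest, and Gm15418 holds 0.060 to 0.108 times the counts of Col4a1.

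The remaining type IV pairs behaved unequally. Col4a5 and Col4a6, which lie head to head on chromosome X with 1274 bases between them, both rose. Col4a5 was at 4.04, 3.76, 3.45 and 3.68 CPM in Sham animals and 5.45, 9.19, 7.0 and 5.82 in Vehicle animals (log2 fold change 0.88, SE 0.17, edgeR adjusted p = 0.00247). Col4a6 was at 1.56, 1.85, 0.658 and 2.02 CPM in Sham and 2.95, 5.71, 3.01 and 4.04 in Vehicle animals (log2 fold change 1.37, SE 0.35, edgeR adjusted p = 0.00874). The Vehicle mice were above all Sham mice for both genes. Col4a3 and Col4a4, the pair on chromosome 1 whose spans overlap by 114 bases, had log2 fold changes of -0.43 and 0.02 (edgeR adjusted p = 0.483 and 0.967). Col4a3 also shares 30533 bases of its span with C430014B12Rik, a non-coding gene on the other strand that was assigned 183 counts over the 12 mice against 151 for Col4a3, so its level is uncertain.

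Of the other collagens, Col18a1, a basement membrane multiplexin whose cleaved end is endostatin, was at 5.07, 7.30, 7.18 and 7.83 CPM in Sham animals, 33.4, 148, 13.0 and 26.8 in Vehicle animals and 9.99, 8.74, 13.3 and 7.91 in LJP animals. Vehicle mouse 2 was several times above the other Vehicle mice, and LJP mouse 3 was just above Vehicle mouse 3. The gene rose (log2 fold change 3.02, SE 0.61, edgeR adjusted p = 0.00268) and had a value of 1.83 without Vehicle mouse 2. Its relative Col15a1 did not pass (log2 fold change 0.88, SE 0.33, edgeR adjusted p = 0.0518).

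Col7a1, the chain of the anchoring fibrils that fasten epithelial basement membranes, was at 3.98, 2.12, 3.23 and 2.02 CPM in Sham animals, 8.58, 50.8, 5.97 and 10.3 in Vehicle animals and 5.45, 3.78, 4.62 and 2.56 in LJP animals. All Vehicle mice were above all Sham and LJP mice, with mouse 2 highest. It rose (log2 fold change 2.74, SE 0.61, edgeR adjusted p = 0.00460), with 1.54 as the value without Vehicle mouse 2.

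Type VI collagen rose in the 3 chains that form its classical trimer. Col6a1 was at 57.2 ± 5.90 CPM (mean ± SD, n = 4) in the Sham group and 119 ± 57.5 in the Vehicle group (log2 fold change 1.05, SE 0.27, edgeR adjusted p = 0.00915). Col6a2 was at 19.0 ± 1.01 and 55.8 ± 35.6 CPM (log2 fold change 1.56, SE 0.32, edgeR adjusted p = 0.00296). Col6a3 was at 3.88 ± 0.815 and 17.4 ± 16.7 CPM (log2 fold change 2.17, SE 0.50, edgeR adjusted p = 0.00520), and its value was 1.22 without Vehicle mouse 2. Their later paralogs did not pass. Col6a5 and Col6a4 had log2 fold changes of 0.85 and -0.67 (edgeR adjusted p = 0.192 and 0.308), and Col6a6 was not tested.

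Among the 8 FACIT genes tested, which decorate the surface of fibrils, 2 rose, a share near the 22.7% of all genes tested. Col16a1 was at 14.4, 14.7, 13.4 and 15.3 CPM in Sham animals, 42.3, 51.0, 28.4 and 33.4 in Vehicle animals and 30.6, 26.2, 34.8 and 22.3 in LJP animals, with both occluded groups wholly above the Sham mice (log2 fold change 1.43, SE 0.18, edgeR adjusted p = 0.000206). Col12a1 was at 14.2, 9.92, 11.5 and 11.9 CPM in Sham, 20.3, 34.1, 20.1 and 20.7 in Vehicle and 15.2, 13.8, 17.8 and 15.7 in LJP animals, and its 3 Vehicle mice other than mouse 2 lay within 1 CPM of each other (log2 fold change 1.00, SE 0.18, edgeR adjusted p = 0.00146). The other 6, Col9a2, Col9a3, Col14a1, Col19a1, Col20a1 and Col22a1, had log2 fold changes between -0.50 and -0.04.

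The transmembrane collagens went the other way or did not pass. Col25a1, a neuronal collagen known for its link to amyloid plaques, fell. It was at 46.5, 44.4, 40.9 and 37.2 CPM in Sham animals, 21.9, 15.4, 33.5 and 28.0 in Vehicle animals and 33.6, 35.5, 29.8 and 34.6 in LJP animals (log2 fold change -0.78, SE 0.18, edgeR adjusted p = 0.00626). Vehicle mouse 2 was the lowest of all mice, and all Vehicle and LJP mice were below all Sham mice. The neuronal markers moved the same way: 3 of 5 fell, and their summed level was 4518 to 5099 CPM in the Sham group and 2384 to 3986 in the Vehicle group, and their part in the fall of Col25a1 was not tested.

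Col26a1 was the other gene that fell. It was at 5.88, 5.67, 5.21 and 5.75 CPM in Sham animals, 1.86, 3.61, 4.09 and 3.88 in Vehicle animals and 4.45, 6.03, 4.41 and 3.46 in LJP animals (log2 fold change -0.75, SE 0.24, edgeR adjusted p = 0.0255). All Vehicle mice lay below all Sham mice, with mouse 1 lowest. The call was lost without Sham mouse 1, 2 or 4 (edgeR adjusted p = 0.0602, 0.0527 and 0.0534). Col13a1, Col17a1 and Col23a1 did not pass.

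**Figure D3:**
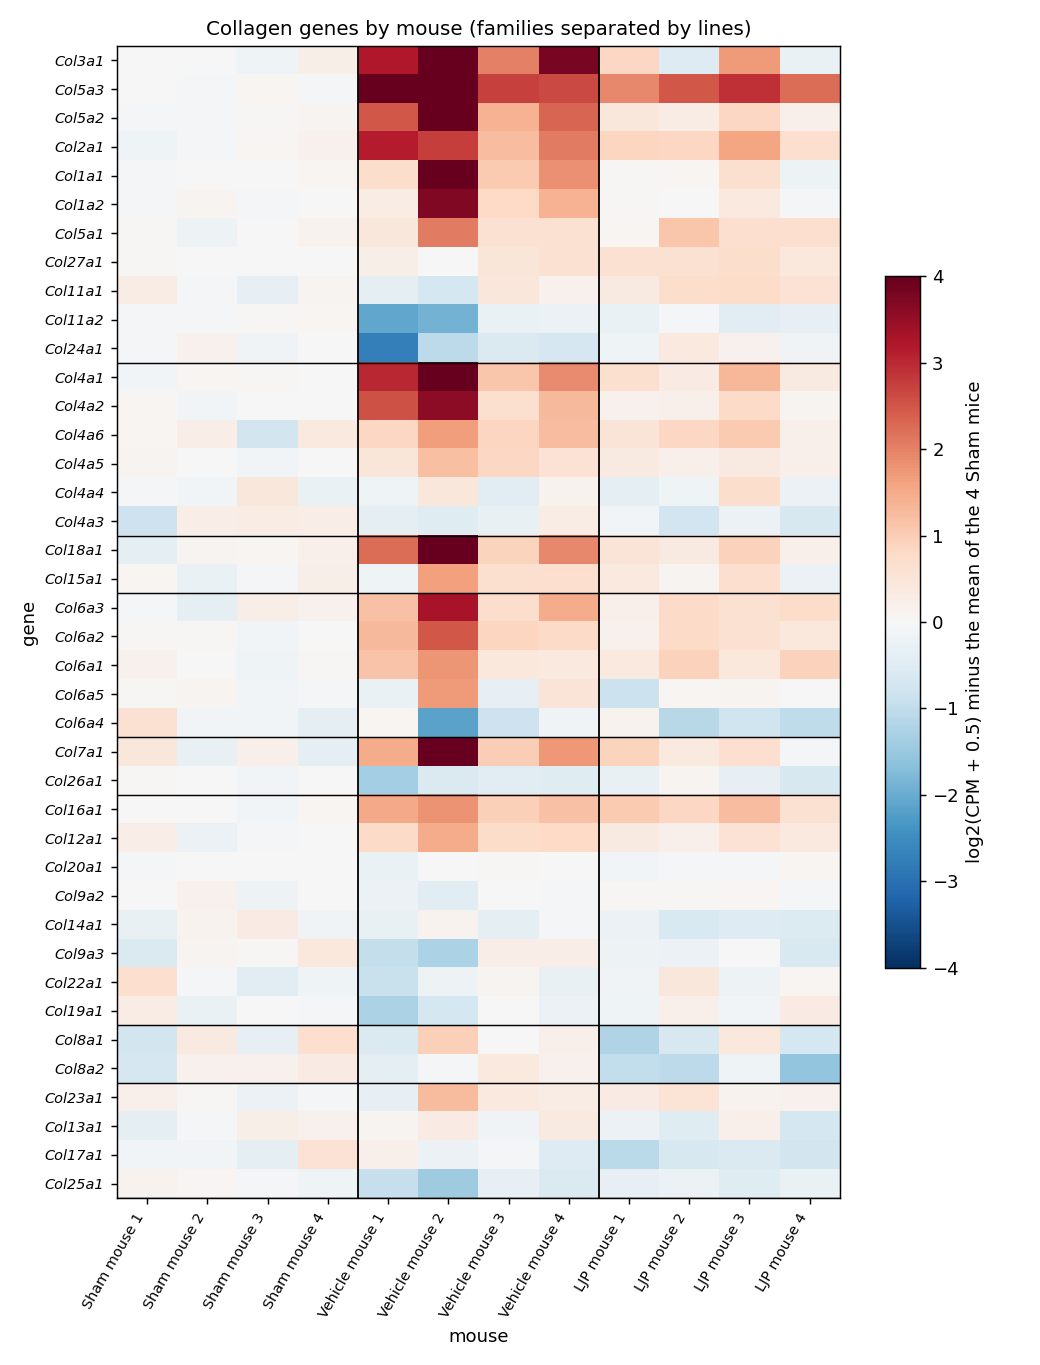
Difference of log2(CPM + 0.5) from the mean of the 4 Sham mice for the 40 collagen genes tested (rows, by family) in each of the 12 mice (columns), with colours limited to -4 and 4. Vehicle mouse 2 holds most of the darkest reds, among them Col3a1, Col5a2, Col1a1, Col4a1, Col18a1 and Col7a1, while Col5a3 is dark in Vehicle mouse 1 as well.

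The weight of Vehicle mouse 2 differed by gene. In 17 of the 18 genes that rose it was the highest Vehicle mouse, at 1.53 to 10.3 times the median of the other 3. Without it, all 18 still passed, Col27a1 joined them (log2 fold change 0.48, edgeR adjusted p = 0.00984), and 18.7% of all genes tested rose. The median over the 40 genes was then 0.29, with the fibrillar genes at 0.90 and the type IV genes at 0.91, so the gap between those families seen with all mice rested on Vehicle mouse 2. The fold changes of Col3a1, Col5a2, Col1a1, Col1a2, Col7a1, Col18a1, Col4a1, Col6a3 and Col4a2 shrank by more than 1.5 times on the linear scale, as the values above show, and those of Col5a3, Col2a1, Col16a1 and Col12a1 by less. Leaving out any other mouse moved none of the named collagens in this comparison by more than 1.5 times.

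Markers of several cell types rose with these genes, those of endothelium among them. Of the 5 endothelial markers 4 rose (Cldn5, Pecam1, Cdh5 and Tek), and their summed level was 171 to 187 CPM in the Sham group, 251 to 1294 in the Vehicle group, where mouse 2 was highest, and 166 to 226 in the LJP group. Of the 7 pericyte and smooth muscle markers 3 rose (Pdgfrb, Kcnj8 and Tagln), while Rgs5 and Myh11 had log2 fold changes of -0.37 and -0.40 (edgeR adjusted p = 0.115 and 0.149), with sums over the list of 145 to 163, 162 to 370.2 and 143 to 181 CPM. Of the 7 fibroblast markers tested 2 rose, beside 22.7% of all genes tested, and both, Dcn and Lum, encode proteoglycans that bind collagen fibrils. Igf2, Slc22a6 and Ogn of that list had log2 fold changes of -0.51, -0.63 and -0.37 (edgeR adjusted p = 0.114, 0.201 and 0.525). The 8 listed fibroblast markers summed to 113 to 137, 78.2 to 282 and 88.0 to 116 CPM, and Dpt among them stayed at or below 0.272 CPM in every mouse. Of the other lists, 3 of 3 dividing cell markers, 4 of 5 microglia and macrophage markers, 2 of 3 ependyma markers, 2 of 5 astrocyte markers and 1 of 3 oligodendrocyte precursor markers rose, 3 of 5 neuron markers fell, and none of the 4 oligodendrocyte markers passed. The dividing cell markers summed to 6.85 to 8.77 CPM in the Sham group, 21.5 to 141 in the Vehicle group and 23.1 to 83.4 in the LJP group, and the microglia and macrophage markers to 89.0 to 93.8, 146 to 276 and 154 to 284. In LJP against Sham, where 3.85% of all genes tested rose and 0.9% fell, 3 dividing cell, 4 microglia and macrophage and 2 astrocyte markers rose. None of the endothelial, pericyte and smooth muscle or fibroblast markers passed there. The part of these cells in the levels of the collagens was not tested.

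The ratio of counts was computed for 6 chosen pairs of chains that are built into the same trimer or fibril, and for 5 of them the Sham and Vehicle groups did not overlap, beside 51.2% of all 780 pairs of the 40 collagens tested. Col1a1 counts were 0.670 to 0.771 of Col1a2 counts in Sham animals, 0.871 to 0.976 in Vehicle animals and 0.651 to 0.867 in LJP animals. The ratio of Col4a1 to Col4a2 counts was 0.619 to 0.821, 0.978 to 1.31 and 0.779 to 1.05, and that of Col3a1 to Col1a1 was 0.202 to 0.262, 0.486 to 1.46 and 0.147 to 0.517. For these 3 ratios the lowest Vehicle value exceeded the highest Sham value, as it did for Col5a2 over Col5a1 (0.190 to 0.226 in Sham, 0.387 to 1.88 in Vehicle and 0.118 to 0.283 in LJP animals) and Col6a2 over Col6a1 (0.304 to 0.350, 0.376 to 0.550 and 0.235 to 0.384). For Col6a3 over Col6a1 the groups overlapped (0.0515 to 0.0941 and 0.0728 to 0.215, with 0.0600 to 0.0804 in the LJP group).

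The comparison of the LJP with the Vehicle group addresses the effect of the treatment after occlusion, and shares the Vehicle mice with the comparison above. No collagen gene passed in edgeR, where 4 genes of all tested did (0.0228%, all lower in the LJP group). At an unadjusted p under 0.05 there were 17 collagen genes lower and 4 higher in the LJP group, beside 17.4% and 12.3% of all genes tested. DESeq2 called 15 collagen genes lower and 1 higher (Col24a1), beside 8.99% and 3.61% of all genes it tested. With all mice included, the median log2 fold change over the 40 genes was -0.56 (fibrillar -1.33, type IV -0.57, others -0.48). Of the 40, 11 lay above 0, beside 49.8% of all genes tested. Vehicle mouse 2 weighs on these medians too, and values of single genes without it are given below.

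The 5 collagens with the smallest p were Col5a2, Col3a1, Col4a2, Col4a1 and Col2a1, each with an edgeR adjusted p of 0.0678. The log2 fold change was -3.22 (SE 0.67) for Col5a2 and -4.30 (SE 0.90) for Col3a1. It was -2.45 (SE 0.56) for Col4a1, -2.12 (SE 0.48) for Col4a2 and -1.61 (SE 0.38) for Col2a1. For Col3a1 and Col5a2 every LJP mouse was below every Vehicle mouse, and for the other 3 the groups overlapped through LJP mouse 3 and Vehicle mouse 3. Groups that did not overlap, with the LJP mice lower, were found for 8 of 40 collagen genes, beside 5.91% of all genes tested: Col1a1, Col3a1, Col5a2, Col4a5, Col6a2, Col7a1, Col12a1 and Col17a1. Col24a1 was the 1 gene with every LJP mouse above every Vehicle mouse, beside 5.77%.

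The calls in this comparison turned on the choice of mice and method. Without Vehicle mouse 3, 14 collagens were lower and 4 higher in the LJP group (13.1% and 8.46% of all genes tested), and without Vehicle mouse 4, 13 were lower and 0 higher (8.38% and 3.35%). With no filter on low counts 9 were lower and 0 higher, beside 1.8% and 0.166%, and 14 were lower and 0 higher by the study's kind of threshold (log2 fold change beyond 0.58 in size and unadjusted p below 0.01), beside 5.89% and 1.07%. Without Vehicle mouse 2 only Col5a2 passed, beside 0.0282% of all genes tested (log2 fold change -1.77, edgeR adjusted p = 0.0296), with Col3a1 at -2.54, Col4a1 at -1.49, Col4a2 at -1.39 and Col2a1 at -1.498 (edgeR adjusted p = 0.0922, 0.0928, 0.0928 and 0.0965).

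For the genes that had risen after occlusion and are not named above, the values in this comparison were as follows. Col1a1 and Col1a2 had log2 fold changes of -2.49 and -2.13 (edgeR adjusted p = 0.0678 and 0.0692), and Col5a3 one of -1.33 (0.0711). Without Vehicle mouse 2 these 3 values were -1.11, -0.80 and -0.85 (edgeR adjusted p = 0.0928, 0.0928 and 0.147). Col18a1, Col7a1 and Col6a3 were at -2.47, -2.20 and -1.53 (edgeR adjusted p = 0.0678, 0.0680 and 0.0789), and at -1.29, -1.01 and -0.59 without Vehicle mouse 2 (0.0922, 0.102 and 0.165). Smaller values belonged to Col6a2 (-1.04), Col12a1 (-0.61), Col4a6 (-0.59), Col4a5 (-0.56), Col16a1 (-0.45), Col5a1 (-0.43) and Col6a1 (-0.37), with edgeR adjusted p from 0.0712 to 0.385. Without Vehicle mouse 2 the value of Col5a1 changed sign to 0.13, and that of Col6a1 was -0.0080. Col25a1 and Col26a1, which fell after occlusion, were at 0.44 and 0.45 (edgeR adjusted p = 0.142 and 0.216).

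The comparison of the LJP with the Sham group asks what remained different in treated mice, and uses the same Sham and LJP mice as the comparisons above. Of 40 collagen genes 3 rose and 0 fell, beside 3.85% and 0.9% of all genes tested. DESeq2 called 4 higher, the same 3 and Col2a1, and 2 lower, Col17a1 and Col8a2 (5.82% and 2.03% of all genes it tested). At an unadjusted p under 0.05 there were 8 higher and 3 lower, beside 11.6% and 7.29%. The 3 genes that rose were Col5a3 (log2 fold change 2.66, SE 0.43, edgeR adjusted p = 0.00407), Col16a1 (log2 fold change 0.98, SE 0.18, edgeR adjusted p = 0.00710) and Col27a1 (log2 fold change 0.62, SE 0.14, edgeR adjusted p = 0.0270).

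Col27a1, a fibrillar collagen of cartilage, was the 1 gene of these that had not passed in Vehicle against Sham. It was at 7.32, 6.97, 6.96 and 7.15 CPM in Sham animals, 8.53, 7.05, 10.2 and 11.1 in Vehicle animals and 11.1, 11, 11.9 and 9.64 in LJP animals. The LJP mice lay above all Sham mice, and Vehicle mouse 2 was within the Sham range. The log2 fold changes of Vehicle against Sham and LJP against Vehicle were 0.37 and 0.24 (edgeR adjusted p = 0.0530 and 0.255). Its call in LJP against Sham was lost when any Sham mouse or LJP mouse 1, 2 or 3 was left out, with edgeR adjusted p from 0.0607 to 0.0994.

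Other collagens with large changes after occlusion did not pass here. Col3a1, Col1a1 and Col1a2 had log2 fold changes of 0.76, 0.17 and 0.11 (SE 0.90, 0.61 and 0.58, edgeR adjusted p = 0.712, 0.917 and 0.946). Over the alternatives run, the value of Col3a1 ranged from 0.16 to 1.03. For Col4a1, Col4a2 and Col18a1 they were 0.72, 0.34 and 0.54 (edgeR adjusted p = 0.523, 0.759 and 0.683), although every LJP mouse was above every Sham mouse for these 3 genes. Such a separation upwards was found for 12 of 40 collagens, beside 12.9% of all genes tested, and downwards for Col17a1 and Col25a1, beside 12%. A fit to the Sham and LJP mice alone, without the spread of the Vehicle mice, called 12 higher and 4 lower, beside 12.1% and 11.8% of all genes it tested. The fit to all groups without Vehicle mouse 2 called 7 higher and 1 lower, beside 7.77% and 5.5%, and the threshold of 0.58 on log2 fold change and 0.01 on unadjusted p gave 4 higher (Col5a3, Col16a1, Col27a1 and Col2a1) and 2 lower, beside 5.1% and 0.797%.

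In 2 of the 40 collagens tested, Col8a2 and Col9a3, the mice with high levels of the choroid plexus gene Ttr were above the other mice of their group in all 3 groups, as they were in 1.14% of all genes tested. These genes, and Col8a1 beside Col8a2, were picked after their values were seen. Col8a1 and Col8a2 form the hexagonal network beneath some endothelia, and Col9a3 belongs to a FACIT collagen of cartilage. None of the 3 passed in any comparison in edgeR fitted to all mice. Col8a2 was called lower in the LJP group by DESeq2 against Vehicle (adjusted p = 0.0292) and against Sham (0.0345), and by edgeR against Sham in the fit to those groups alone and without LJP mouse 3, the LJP mouse with high Ttr. Col8a2 was at 5.13, 9.64, 9.59 and 10.8 CPM in Sham animals, 6.35, 7.95, 11.3 and 9.70 in Vehicle animals and 4.00, 3.83, 7.56 and 2.51 in LJP animals. Col9a3 was at 12.7, 20.4, 19.7 and 25.6 CPM in Sham, 9.67, 7.61, 23.0 and 23.1 in Vehicle and 16.6, 16.1, 19.1 and 12.2 in LJP animals. Ttr was at 13.4, 611, 375 and 806 CPM in Sham, 2.99, 13.5, 465 and 428 in Vehicle and 7.27, 10.3, 338 and 5.07 in LJP animals, so the mice with high Ttr were Sham mice 2, 3 and 4, Vehicle mice 3 and 4 and LJP mouse 3, and these were also the highest of their group for Col9a3 and Col8a2. For Col8a1 Vehicle mouse 2, with low Ttr, was the exception at 11.6 CPM. The 6 choroid plexus markers summed to 31.0 to 906 CPM in the Sham group, 19.9 to 529.7 in the Vehicle group and 21.8 to 387 in the LJP group, none of them passed in edgeR or DESeq2 in any comparison (at an unadjusted p under 0.05, 2 were lower in LJP against Sham and 0 in the others), and their part in the levels of these collagens was not tested.

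**Figure D4:**
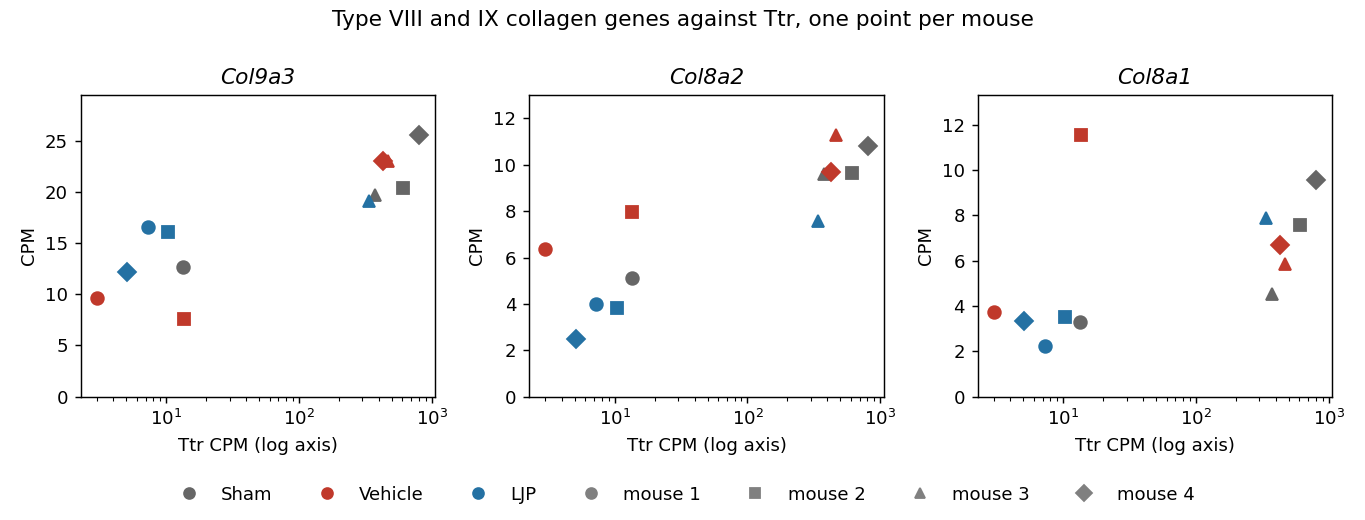
CPM of Col9a3, Col8a2 and Col8a1 (vertical axes) against CPM of the choroid plexus gene Ttr on a log axis, with a point per mouse (colour gives the group, marker shape the mouse number). The 6 mice with Ttr at 338 to 806 CPM are the highest of their group for Col9a3 and Col8a2, while Vehicle mouse 2 is high for Col8a1 with Ttr at 13.5 CPM.

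Col17a1, a transmembrane collagen of epithelial hemidesmosomes, was at 1.04, 1.04, 0.767 and 1.97 CPM in Sham animals, 1.41, 0.902, 1.08 and 0.647 in Vehicle animals and 0.273, 0.562, 0.598 and 0.502 in LJP animals. Every LJP mouse was below every Sham and Vehicle mouse, but the gene did not pass in edgeR fitted to all mice (log2 fold change -1.07 against Vehicle and -1.32 against Sham, edgeR adjusted p = 0.102 and 0.0730). Against Sham it was called lower by DESeq2 (adjusted p = 0.0375), and by edgeR in the fit to those groups alone and without Vehicle mouse 2. The 4 airway and lung genes moved the same way. They summed to 8.55 to 13.2 CPM in the Sham group, 8.35 to 10.6 in the Vehicle group and 0.358 to 0.669 in the LJP group, Scgb1a1 and Sftpa1 were at 0 in all LJP mice, and 3 of the 4 fell in LJP against Vehicle. Their part in the levels of Col17a1 was not tested.

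The genes that modify and secrete collagen chains were taken as a list of 18. After occlusion 12 rose and 1 fell (median log2 fold change 0.89), beside 22.7% and 17.3% of all genes tested, the shares against which the lists that follow are also read. Plod3, a lysyl hydroxylase that also adds sugars, was at 31.5, 31.2, 32.7 and 36.7 CPM in Sham animals and 76.6, 83.8, 57.7 and 57.8 in Vehicle animals (log2 fold change 1.06, SE 0.14, edgeR adjusted p = 0.000237). P4ha3, a prolyl hydroxylase subunit, and P3h4, a cofactor of lysine hydroxylation, had log2 fold changes of 1.58 and 0.78 (edgeR adjusted p = 0.000530 and 0.000640). In the LJP group Plod3 and P4ha3 were above Sham (0.64 and 0.98, edgeR adjusted p = 0.0168 and 0.0316), and both calls were lost when Sham mouse 1, 2 or 3 or LJP mouse 1 or 3 was left out, with Plod3 at 0.0549 to 0.0643 and P4ha3 at 0.0584 to 0.104.

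Of 8 genes for cleavage of the propeptides 2 rose and 1 fell, close to the 22.7% and 17.3%. Bmp1, the C-propeptide protease, was at 45.6, 43.2, 48.4 and 47.1 CPM in Sham animals, 132, 221, 102 and 103 in Vehicle animals and 77.0, 99.9, 104 and 89.6 in LJP animals (log2 fold change 1.60, SE 0.21, edgeR adjusted p = 0.000286). Of the 3 N-propeptide proteases 1 rose, 1 fell and 1 did not pass. Adamts14 rose from 0.231, 0.381, 0.603 and 0.415 CPM in Sham animals to 5.76, 22.3, 3.01 and 5.55 in Vehicle animals (log2 fold change 4.47, SE 0.62, edgeR adjusted p = 0.000378, and 3.52 without Vehicle mouse 2). Adamts3 fell (log2 fold change -0.90, SE 0.21, edgeR adjusted p = 0.00539). Adamts2 was at 8.996, 11.33, 10.52 and 9.640 CPM in Sham and 8.80, 32.2, 12.2 and 15.0 in Vehicle animals, and the groups overlapped (log2 fold change 0.75, SE 0.31, edgeR adjusted p = 0.0670). Bmp1 and Adamts14 also passed in LJP against Sham (1.01 and 2.81, edgeR adjusted p = 0.0162 and 0.0223), but Bmp1 lost that call without Sham mouse 1, 2 or 4 or LJP mouse 3 (0.0508 to 0.0598) and Adamts14 without any Sham mouse or LJP mouse 3 (0.0518 to 0.0827).

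The lysyl oxidases, which cross-link collagen and elastin, rose in 5 of 5 genes, beside 22.7% (median log2 fold change 3.00). Lox itself was at 0.461, 1.36, 0.986 and 0.726 CPM in Sham animals, 18.0, 79.0, 2.42 and 8.30 in Vehicle animals and 1.04, 0.256, 1.20 and 0.669 in LJP animals. All Vehicle mice were above all others, mouse 2 highest, and the Sham and LJP mice overlapped (log2 fold change 4.92, SE 0.93, edgeR adjusted p = 0.00203, and 3.42 without Vehicle mouse 2). Loxl1 and Loxl3 had log2 fold changes of 3.00 and 1.14 (edgeR adjusted p = 0.000634 and 0.00170), and Loxl1 one of 2.24 without Vehicle mouse 2. In LJP against Vehicle the log2 fold change of Lox was -5.08 (edgeR adjusted p = 0.0678), and -3.59 without Vehicle mouse 2 (0.0922).

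Of the 10 collagen receptors listed 8 were tested and 6 rose, beside 22.7%. Lair1, an inhibitory receptor of immune cells, was at 5.25, 6.05, 6.30 and 4.09 CPM in Sham animals, 9.26, 16.2, 11.6 and 13.4 in Vehicle animals and 15.5, 8.59, 14 and 12.0 in LJP animals. Both occluded groups lay above all Sham mice, and it passed against Sham in both (log2 fold change 1.22 and 1.21, edgeR adjusted p = 0.00153 and 0.00710). Ddr1, a receptor tyrosine kinase for collagen, and Itgb1, the shared chain of the collagen-binding integrins, rose after occlusion (0.68 and 1.51, edgeR adjusted p = 0.00258 and 0.00360).

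Basement membrane partners rose in 9 of 16 genes and fell in 1, beside 22.7% and 17.3%. Hspg2, which encodes perlecan, was at 23.5, 20.2, 25.1 and 25.3 CPM in Sham animals, 181, 409, 35.5 and 74.5 in Vehicle animals and 25.1, 18.9, 30.0 and 16.2 in LJP animals, with the order of Vehicle mice seen for Col4a1 (log2 fold change 2.90, SE 0.57, edgeR adjusted p = 0.00247, and 2.04 without Vehicle mouse 2). Sparc, a collagen-binding matricellular protein, and the laminin chain Lamb2 had log2 fold changes of 1.65 and 1.05 (edgeR adjusted p = 0.000441 and 0.00289). Partners of fibrils rose in 9 of 12 genes and fell in 1, beside the same shares. Fn1 (fibronectin), Thbs1 (thrombospondin) and Fbln2 (fibulin) were at 2.58, 5.45 and 3.18 (edgeR adjusted p = 0.00118, 0.00162 and 0.00247).

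Thbs1, like Col2a1, was highest in Vehicle mouse 1. It was at 3.29, 3.21, 2.79 and 3.37 CPM in Sham animals and 288, 224, 11.5 and 31.5 in Vehicle animals, and its log2 fold change was 4.81 without Vehicle mouse 1. For Fn1 and Fbln2 the values without Vehicle mouse 2 were 1.87 and 1.96. Over the 6 lists 43 of 67 genes tested rose and 4 fell after occlusion, beside 22.7% and 17.3% of all genes tested. In LJP against Vehicle none of the 67 passed in edgeR, beside 0.0228%, while 39 were lower and 1 higher at an unadjusted p under 0.05 (17.4% and 12.3% of all genes tested), and DESeq2 called 32 lower and 0 higher (8.99% and 3.61%). Their median log2 fold change was -0.74. In LJP against Sham 5 rose, all named above, beside 3.85%.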

How the data were processed

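Polyadenylated RNA from 12 mouse brain hemispheres (Sham, Vehicle and LJP, 4 each, grouped by the labels) was sequenced. The deposited values are raw whole-number counts per gene, not normalized by the authors, and the submitters' processing notes name featureCounts, mm10 and GRCm39 with no role. The files' positions of the 44 genes equal RefSeq GRCm38.p6. The aligner is not given in the sources used here.

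From these counts, genes were filtered with filterByExpr (17558 kept), scaled by TMM and tested with edgeR 4.0.16 (R 4.3.3, limma 3.58.1) in 1 quasi-likelihood fit over all groups, with Benjamini-Hochberg adjustment. SE is the absolute log2 fold change divided by the square root of F. The scripts were tested on simulated counts. Alternatives were DESeq2 1.42.0, no filter, other scalings, 2-group fits, a replicate block, another threshold and leaving out each mouse. The members, gene lists and named genes (at most 6 per family and direction by p, 5 in LJP against Vehicle, and 3 per partner list) were chosen with earlier results of these data known. Other collagens with a printed fold change were picked after their values were seen. No p was adjusted over a list.

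Depth was 17960353 to 22216315 counts. The labels call each sample a separate mouse. Replicates differed beyond counting noise (smallest chi-square per gene 2.48).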

Additional observations from a re-analysis of the deposited data

Results flagged for a closer look

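In 120 groups of 4 mice (40 collagen genes in 3 groups), 17 had 1 mouse whose gap to the next, divided by the range of the group, was above Dixon's critical value for 4 samples. For independent groups with normally distributed values, chance gives about 1 in 20 groups, or 6 here. The genes share the same mice, so 17 beside 6 is a guide and not a test. Vehicle mouse 2 was the highest in 9 of them: Col12a1 (gap over range 0.956), Col5a1 (0.943), Col5a2 (0.904), Col7a1 (0.904), Col3a1 (0.892), Col1a2 (0.879), Col1a1 (0.878), Col6a3 (0.860) and Col18a1 (0.849). LJP mouse 3 was the highest of its group for Col4a2 (0.894), Col4a4 (0.890) and Col2a1 (0.854). LJP mouse 1 was the lowest for Col6a5 (0.868) and the highest for Col6a4 (0.8292). Sham mouse 1 was the lowest (0.930) and Vehicle mouse 4 the highest (0.832) for Col4a3, a gene under 1.2 CPM in every mouse, and Vehicle mouse 1 was the lowest for Col20a1 (0.852).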

How the results depend on the processing

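The count of collagens that rose after occlusion stayed within 1.5 times of 18 under every alternative run. Those that fell numbered 5 in DESeq2, and 1 to 5 when single mice were left out. In LJP against Vehicle, where edgeR called 0, there were 1 higher in DESeq2 and 0 to 4 without single mice, and lower genes numbered 9 with no filter, 15 in DESeq2, 14 by the log2 fold change and unadjusted p threshold and 0 to 14 without single mice. In LJP against Sham, 12 were higher and 4 lower in the fit to those groups alone, 2 were lower in DESeq2 and 2 by the other threshold. Without single mice 2 to 7 were higher and 0 to 1 lower. Col1a1 and Col1a2 in LJP against Sham turned from 0.17 and 0.11 to -0.033 and -0.0030 without LJP mouse 3, with ranges without single mice of -0.033 to 0.28 and -0.0030 to 0.16. Over all alternatives for the named collagens, 1000 values kept their direction and side of the threshold, 67 newly passed it, 11 no longer did and these 2 turned. Beyond fewer mice or genes in a fit, the cause was not tested.

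The labels number the mice of each group 1 to 4. Deviations of same-numbered mice correlated at -0.32 to 0.11, above 0.1 in 1 of 12 pairs, and 2 of 12 mice correlated best with their own number. These values gave no sign of a pairing by number, but with 4 mice per group they cannot exclude one. With a replicate block 18 collagens were higher and 2 lower after occlusion, 0 in LJP against Vehicle, and 2 higher in LJP against Sham (Col27a1 lost). Genes with a few counts per library, such as Col4a3, could show only large differences at this depth.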
